A study of Mus musculus with 6 samples.

Results

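The genes described here are 7 genes of the MHC class II antigen presentation pathway: H2-Aa, H2-Ab1, H2-Eb1, Cd74, H2-Oa, H2-Ob and Ciita. They were selected by name, and every probe set annotated to exactly 1 of these symbols was taken, which gave 14 probe sets for 7 of the 18193 genes on the array. Whole-lung total RNA was measured on 6 Affymetrix mouse arrays at postnatal day 15. Of these, 3 were from animals labelled wildtype controls and 3 from animals labelled Foxa2-/-, called null below. The design text asks how the loss of Foxa2, a forkhead factor of the lung epithelium, bears on type 2 (Th2) inflammation and on goblet cell excess. The strain label of both groups reads SPC(+)Cre(-) with doxycycline (Dox) from embryonic day 6.5 to 12.5, so it does not separate the groups, and the genotype label was used. Foxa2 itself read 10.28, 10.56 and 10.28 in controls and 7.72, 5.38 and 5.13 in null lungs on the log2 scale. All null lungs lay below all controls, and null replicate 1 had the highest Foxa2 signal of the 3 (log2 difference -4.30, limma adjusted p = 0.0599).

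MHC class II molecules carry peptides from endosomes to the cell surface, where CD4 T cells read them. Dendritic cells, B cells and macrophages are the main cells that make them, and alveolar type II cells of the mouse lung make them too. The α and β chains assemble with the invariant chain CD74 in the endoplasmic reticulum, and H2-DM then exchanges the last fragment of CD74 for peptide in endosomes, a step that H2-O restrains. Transcription of the whole set is switched on by CIITA, which binds no DNA itself and docks on factors (RFX, CREB and NF-Y) bound to a conserved X box and Y box ahead of each gene.

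The X and Y boxes are shown here because they are the shared element through which these genes are known to be switched on together. RefSeq's promoter table (GRCm38.p6, the 250 bases before each start) had entries for 4 of the 7 members: H2-Aa, H2-Eb1, H2-Oa and H2-Ob. The stretch from the X box to the Y box is printed 5′ to 3′ on the gene's strand, with GCAAC of the X box and ATTGG of the Y box in capitals.
H2-Aa, chr17:34287859-34287914, minus strand: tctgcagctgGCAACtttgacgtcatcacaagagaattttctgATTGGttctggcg
H2-Eb1, chr17:34305766-34305820, plus strand: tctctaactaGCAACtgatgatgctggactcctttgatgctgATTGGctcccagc
H2-Oa, chr17:34092293-34092348, plus strand: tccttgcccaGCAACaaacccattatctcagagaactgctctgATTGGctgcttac
H2-Ob, chr17:34238808-34238860, plus strand: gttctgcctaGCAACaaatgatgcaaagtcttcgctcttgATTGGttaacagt

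The distance from the first base of GCAAC to the first base of ATTGG was 33 bases in H2-Aa, 32 in H2-Eb1, 33 in H2-Oa and 30 in H2-Ob. ATTGG began 48, 59, 43 and 57 bases before the start of the same 4 genes. The pair GCAAC and ATTGG on the same strand, 20 to 45 bases apart and searched on both strands, stood in all 4 member promoters and in 1.04% of 32851 promoters. GCAAC was chosen after these promoters had been read. The motif set earlier, GNAACNG followed by ATTGG at the same distance, stood in 1 of the 4 (H2-Eb1) and in 1.11% of all promoters. ATTGG alone was in 33.8% of all promoters. These matches are a description of letters in a window, and binding was not measured.

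All 7 genes had a higher mean in the null lungs, as did 50.8% of all genes, and no member passed the threshold of the test. In 5 of the 7 genes (H2-Ab1, H2-Eb1, Cd74, H2-Oa and Ciita) every null lung lay above every control, against 10.8% of all genes on the array; no member had every null lung below, as 8.73% of all genes did. The log2 differences (null minus control) ran from 0.47 for Cd74 to 2.18 for H2-Eb1, with a median of 0.78 beside 0.0053 over all genes. With limma and Benjamini-Hochberg adjustment over all genes, 0 of the 7 members had an adjusted p under 0.05 (lowest 0.14, for Ciita), where 0.473% of all genes were called higher in null lungs, 0.0989% lower and 0.572% in either direction. At an unadjusted p under 0.05, 5 of 7 members were higher, beside 7.28% of all genes. That count was 2 without control replicate 3, 3 without null replicate 1 and 3 without null replicate 2. In whole-lung RNA, more cells that express a gene and more RNA per cell cannot be told apart.

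**Figure D1:**
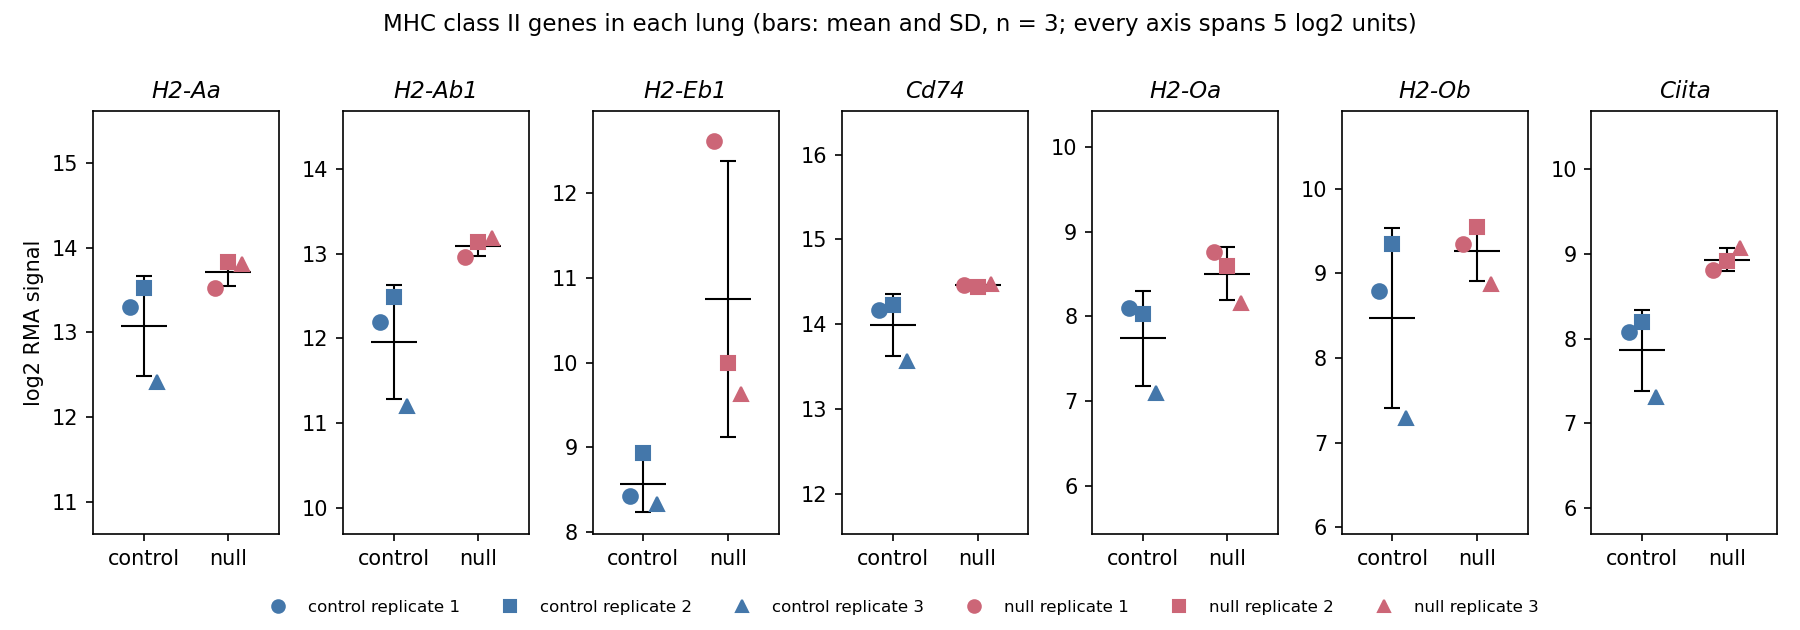
Log2 RMA signal of the 7 class II genes (vertical axes, each spanning 5 log2 units) in 3 control and 3 null lungs, each gene by its brightest probe set; points are single arrays, and bars give the mean and SD. Control replicate 3 is the lowest array in all 7 panels, and null replicate 1 stands apart in H2-Eb1 at 12.61.

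The classical chains form the molecules that present peptide. H2-Ab1, the β chain of the I-A molecule, read 12.19, 12.48 and 11.20 in control replicates 1 to 3 and 12.96, 13.13 and 13.18 in null replicates 1 to 3. The null lungs were close to each other and all above the controls, which spread over more than a log2 unit. The means were 11.96 ± 0.67 and 13.09 ± 0.12 on the log2 scale (SD, n = 3 each), or 2.19-fold (log2 difference 1.13, 95% interval 0.36 to 1.91, limma adjusted p = 0.221). All 3 probe sets of H2-Ab1 had every null lung above every control, with differences of 1.13, 1.26 and 1.30.

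H2-Aa, the α chain that pairs with H2-Ab1, read 13.30, 13.53 and 12.41 in controls and 13.52, 13.83 and 13.80 in null lungs on its brightest probe set. Null replicate 1 and control replicate 2 were level there, so the groups overlapped. The log2 difference was 0.64 (95% interval -0.07 to 1.34, limma adjusted p = 0.449).

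H2-Aa has 4 probe sets, and they did not move alike. The second brightest read 12.16, 12.34 and 11.23 in controls and 12.86, 12.61 and 12.52 in null lungs, without overlap. The 2 dimmer ones set null replicate 1 apart from all other lungs. The brighter of these read 8.54, 8.58 and 8.13 in controls, then 10.40 in null replicate 1 but 8.57 and 8.56 in null replicates 2 and 3. The dimmest read 5.76 in null replicate 1 and between 3.17 and 4.05 in the other 5 lungs, beside array 25th percentiles of 5.69 to 5.78. On both, null replicates 2 and 3 lay within or close to the controls. The suffixes x and s in Affymetrix names mark probes that can also match other transcripts, so signal on these probe sets may not come from H2-Aa alone. The same limit holds for H2-Ab1, whose brightest probe set has the suffix s and whose second brightest has the suffix x.

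H2-Eb1, the β chain of the second class II molecule, I-E, had the largest difference among the 7 and the widest spread. It read 8.42, 8.94 and 8.33 in controls and 12.61, 10.001 and 9.63 in null lungs. Every null lung was above every control, but null replicate 1 stood 2.61 log2 units above the next highest lung. The means were 8.56 ± 0.32 and 10.75 ± 1.63 (log2, SD, n = 3 each), and the log2 difference was 2.18 (95% interval 0.37 to 4.0, limma adjusted p = 0.31). Without null replicate 1 it was 1.25 (limma adjusted p = 0.0776), and without null replicate 1 and control replicate 3 together it was 1.14. Each of 3 member probe sets (21.4% of 14) had null replicate 1 more than 1 log2 unit above all other lungs, beside 0.167% of all 45037 probe sets. What sets this lung apart was not tested. A probe reads a transcript less well where their sequences differ, and no H2 genotype of these lungs was used here, so on these probe sets a difference in H2 sequence and one in RNA level cannot be told apart.

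**Figure D2:**
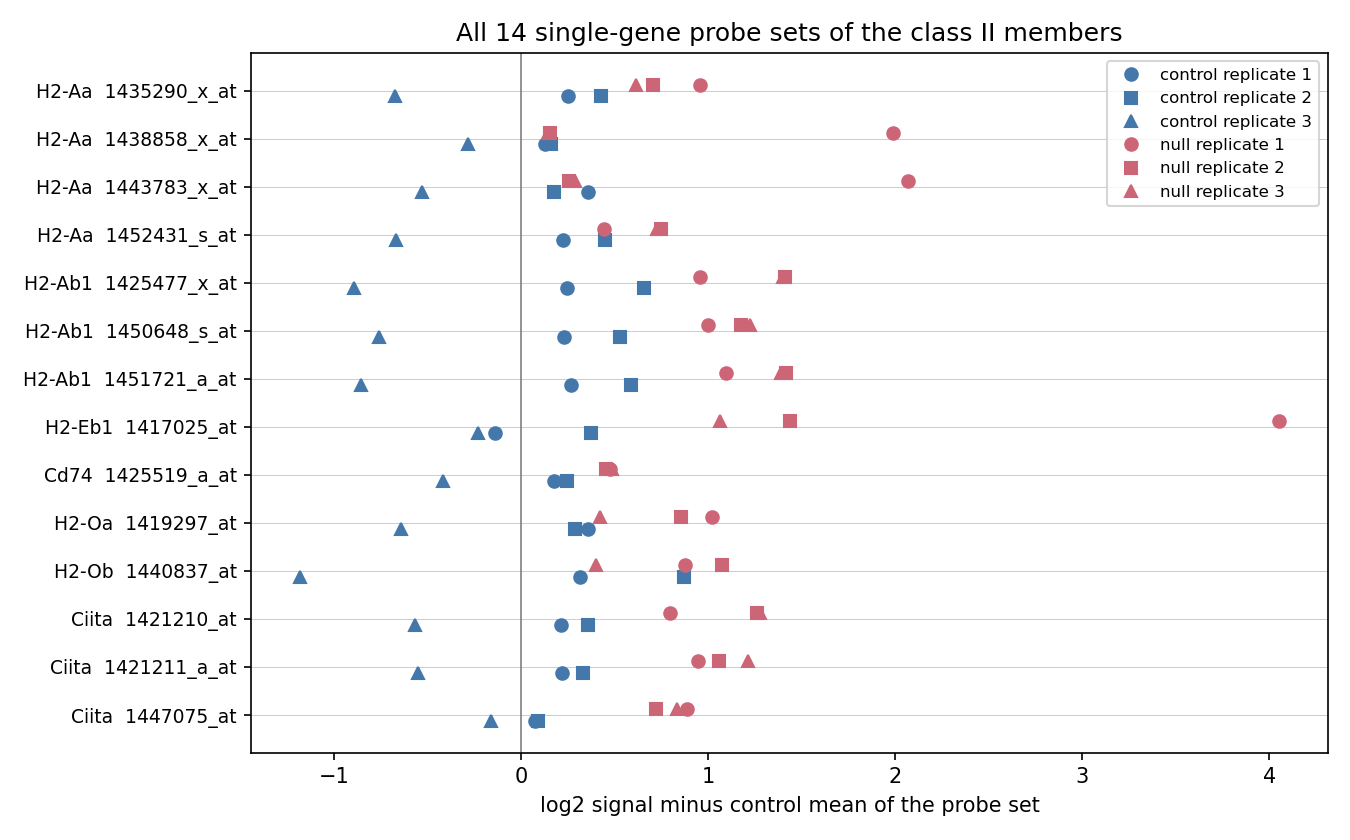
Log2 signal of each of the 14 member probe sets minus its own control mean (horizontal axis), with 1 point for each of the 6 lungs. Null lungs lie above all controls in 10 of the 14 probe sets, control replicate 3 is lowest in all 14, and null replicate 1 lies far to the right in H2-Eb1 and in 2 probe sets of H2-Aa.

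Cd74, the invariant chain that fills the peptide groove during assembly, was bright in every lung. It read 14.16, 14.23 and 13.57 in controls and 14.46, 14.44 and 14.47 in null lungs. The null lungs were almost level (SD 0.016, n = 3) and all above the controls. The log2 difference was 0.47 (95% interval 0.02 to 0.93, limma adjusted p = 0.388), or 1.39-fold. The highest value of any probe set on these arrays was 14.88, so little of the scale lies above Cd74.

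H2-Oa and H2-Ob form H2-O, which restrains peptide exchange and is best known from B cells. H2-Oa, the α chain, read 8.10, 8.03 and 7.10 in controls and 8.76, 8.59 and 8.16 in null lungs. Null replicate 3 was just above the highest control. Its log2 difference was 0.76 (95% interval 0.04 to 1.49, limma adjusted p = 0.379).

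H2-Ob, the β chain, read 8.79, 9.34 and 7.29 in controls and 9.35, 9.55 and 8.88 in null lungs. The groups overlapped, with control replicate 2 above null replicate 3. Its log2 difference was 0.78 with the widest interval after H2-Eb1 (-0.45 to 2.01, limma adjusted p = 0.604). Control replicate 2 and null replicates 2 and 3 have the same leading number in their titles, and among these 3 lungs its difference turned to -0.13. The difference was 0.19 without control replicate 3.

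Ciita, the transactivator of the class II genes, had the smallest p of the 7. Its brightest probe set read 8.08, 8.19 and 7.31 in controls and 8.81, 8.92 and 9.07 in null lungs. The groups did not overlap, and the gap between the nearest lungs was wider than the spread of the null lungs. The means were 7.86 ± 0.48 and 8.93 ± 0.13 on the log2 scale (SD, n = 3 each), or 2.10-fold (log2 difference 1.07, 95% interval 0.48 to 1.66, limma adjusted p = 0.14). Its other probe sets gave 1.11 and 0.81, and all 3 had every null lung above every control. The smallest adjusted p of any member probe set, 0.0939, was that of Ciita's dimmest one, which read between 5.82 and 6.07 in control lungs and between 6.70 and 6.87 in null ones.

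At the level of probe sets, all 14 had a positive difference and 10 had every null lung above every control, where 9.73% of all probe sets did. None of the 14 passed limma's test over all 45037 probe sets, of which 0.0799% were called higher in null lungs and 0.0999% in either direction. At an unadjusted p under 0.05, 10 of the 14 were higher, beside 6.03% of all probe sets.

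Control replicate 3 was the lowest of the 6 lungs for all 7 genes and for all 14 probe sets, while it was the lowest for 17.8% of all genes. It lay below the mean of control replicates 1 and 2 by 1.77 log2 units for H2-Ob, by 1.14 for H2-Ab1, by 1.00 for H2-Aa, by 0.97 for H2-Oa, by 0.83 for Ciita, by 0.63 for Cd74 and by 0.34 for H2-Eb1. Over all genes the median of that difference was -0.00625. Without control replicate 3, the log2 differences were 0.30 for H2-Aa, 0.26 for Cd74, 0.44 for H2-Oa and 0.19 for H2-Ob. They were 0.75 for H2-Ab1, 0.79 for Ciita and 2.07 for H2-Eb1. Among the 3 lungs with the same title number (1 control, 2 null) they were 0.29 for H2-Aa, 0.67 for H2-Ab1, 0.88 for H2-Eb1, 0.23 for Cd74, 0.35 for H2-Oa and 0.80 for Ciita.

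To compare members without the scale of the array, each was set against Cd74 in the same lung. The log2 ratio to Cd74 was higher in null lungs by 1.71 for H2-Eb1, by 0.66 for H2-Ab1 and by 0.60 for Ciita, and in these 3 the groups did not overlap. For H2-Eb1 the ratio was -1.85, -4.44 and -4.84 in null replicates 1 to 3. Without null replicate 1, the ratio differed by 0.78 for H2-Eb1, by 0.73 for H2-Ab1 and by 0.66 for Ciita. For Ciita the ratio was -6.08, -6.04 and -6.26 in controls and -5.66, -5.53 and -5.40 in null lungs, with control replicate 3 the lowest. For H2-Aa, H2-Oa and H2-Ob the ratio differed by 0.17, 0.29 and 0.31, with overlapping groups. In the exact two-sided permutation test, 3 against 3, p was 0.1 for the first 3, the smallest the design allows, and 0.2 after adjustment over the 6 comparisons; for the others it was 0.3 to 0.7. Without control replicate 3, the ratio of H2-Ob to Cd74 differed by -0.07. Cd74 is near the top of the scale in the null lungs, and any compression there would make these ratios too large, which was not tested.

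Of 4 other measured genes for class II chains and peptide editing, 3 had every null lung above every control, beside 10.8% of all genes. Of these 4, 0 passed. H2-DMa, the α chain of the peptide exchange factor H2-DM, read 10.40, 10.43 and 9.55 in controls and 11.58, 11.54 and 11.36 in null lungs. The groups were nearly a log2 unit apart at their nearest lungs, and the difference was 1.37 (95% interval 0.76 to 1.97, limma adjusted p = 0.0879). H2-DMb2, a β chain of H2-DM, read 8.83, 8.53 and 8.13 in controls and 9.36, 9.50 and 9.05 in null lungs, without overlap (log2 difference 0.81, limma adjusted p = 0.186). H2-DMb1 was not analysed here.

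H2-Ea, the α chain gene that pairs with H2-Eb1 and is annotated as a transcribed pseudogene in the C57BL/6J reference, went the other way in null replicate 1. It read 8.82, 9.56 and 8.62 in controls, 8.50 in null replicate 1, and 10.18 and 10.09 in null replicates 2 and 3. Null replicate 1, the lung with the most H2-Eb1 signal, was thus the lowest of all 6 for H2-Ea (log2 difference 0.59, limma adjusted p = 0.679). H2-Eb2, a second β chain gene of this kind, read between 6.02 and 6.44 in control lungs and between 6.55 and 6.83 in null ones (log2 difference 0.42, limma adjusted p = 0.335).

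Among the factors that hold CIITA on the promoter, none of 7 passed the test. They had a median log2 difference of -0.02, with 3 of 7 positive. Every null lung lay above the controls for 1 and below them for 1, beside 10.8% and 8.73% of all genes. Those with the smallest p were Rfxap, a subunit of RFX, at -0.36 (limma adjusted p = 0.401), and Nfyb, a subunit of NF-Y, at -0.27 (limma adjusted p = 0.521). Whether they differ from Ciita in this respect was not tested.

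Genes of endosomal processing cut antigen and the invariant chain into peptides. Of 8 such genes, 7 had every null lung above every control, beside 10.8% of all genes, and 0 passed. Ctss, cathepsin S, which trims the invariant chain, read 12.78, 13.19 and 13.02 in controls and 13.68, 13.83 and 13.72 in null lungs (log2 difference 0.74, limma adjusted p = 0.0883). Ifi30, a thiol reductase that opens disulphide bonds of antigens, read 12.87, 12.71 and 12.63 in controls and 13.28, 13.49 and 13.41 in null lungs (log2 difference 0.66, limma adjusted p = 0.0881). The exception was Sppl2a, a protease that clears the last stub of CD74, at -0.23. It read 11.35, 11.51 and 11.43 in controls, 10.32 in null replicate 1, and 11.55 and 11.73 in null replicates 2 and 3. Only null replicate 1 was thus below the controls. The summed signal of the list was 15.36 (log2) in control replicate 3 beside 15.41 in both other controls.

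Of 5 genes of surface turnover and CD74 partners, 4 had every null lung above every control, beside 10.8% of all genes, and none passed. Marchf1, a ubiquitin ligase that removes class II from the surface, read 8.04, 8.0 and 8.15 in controls, 8.30 in null replicate 1, and 9.59 and 9.55 in null replicates 2 and 3. Here null replicate 1 was near the controls and the other null lungs were well above them (log2 difference 1.09, limma adjusted p = 0.275), and without null replicate 1 the difference was 1.51 (limma adjusted p = 0.0139). Cd83, which opposes Marchf1, differed by 0.71 (limma adjusted p = 0.304).

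Interferon gamma is the best known inducer of Ciita outside professional antigen presenting cells. Of 7 measured genes of its axis, 2 had every null lung above and 1 every null lung below the controls. The shares over all genes were 10.8% and 8.73%, and none of the 7 passed. Ifngr2, a receptor chain, differed by 0.46 (limma adjusted p = 0.243), and Irf1, a downstream transcription factor, by 0.41 (limma adjusted p = 0.443). Ifng itself read 4.39, 6.38 and 4.41 in controls and 4.24, 7.43 and 5.15 in null lungs, so the groups overlapped, and it was high in the lungs numbered 2 of both groups. Of all 31 measured pathway genes, 17 lay above and 2 below every control, beside 10.8% and 8.73% of all genes. The difference was positive in 23, beside 50.8% of all genes, and the median was 0.41, beside 0.0053. In limma's test 0 passed, and 15 had an unadjusted p under 0.05, as 12.3% of all genes did.

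**Figure D3:**
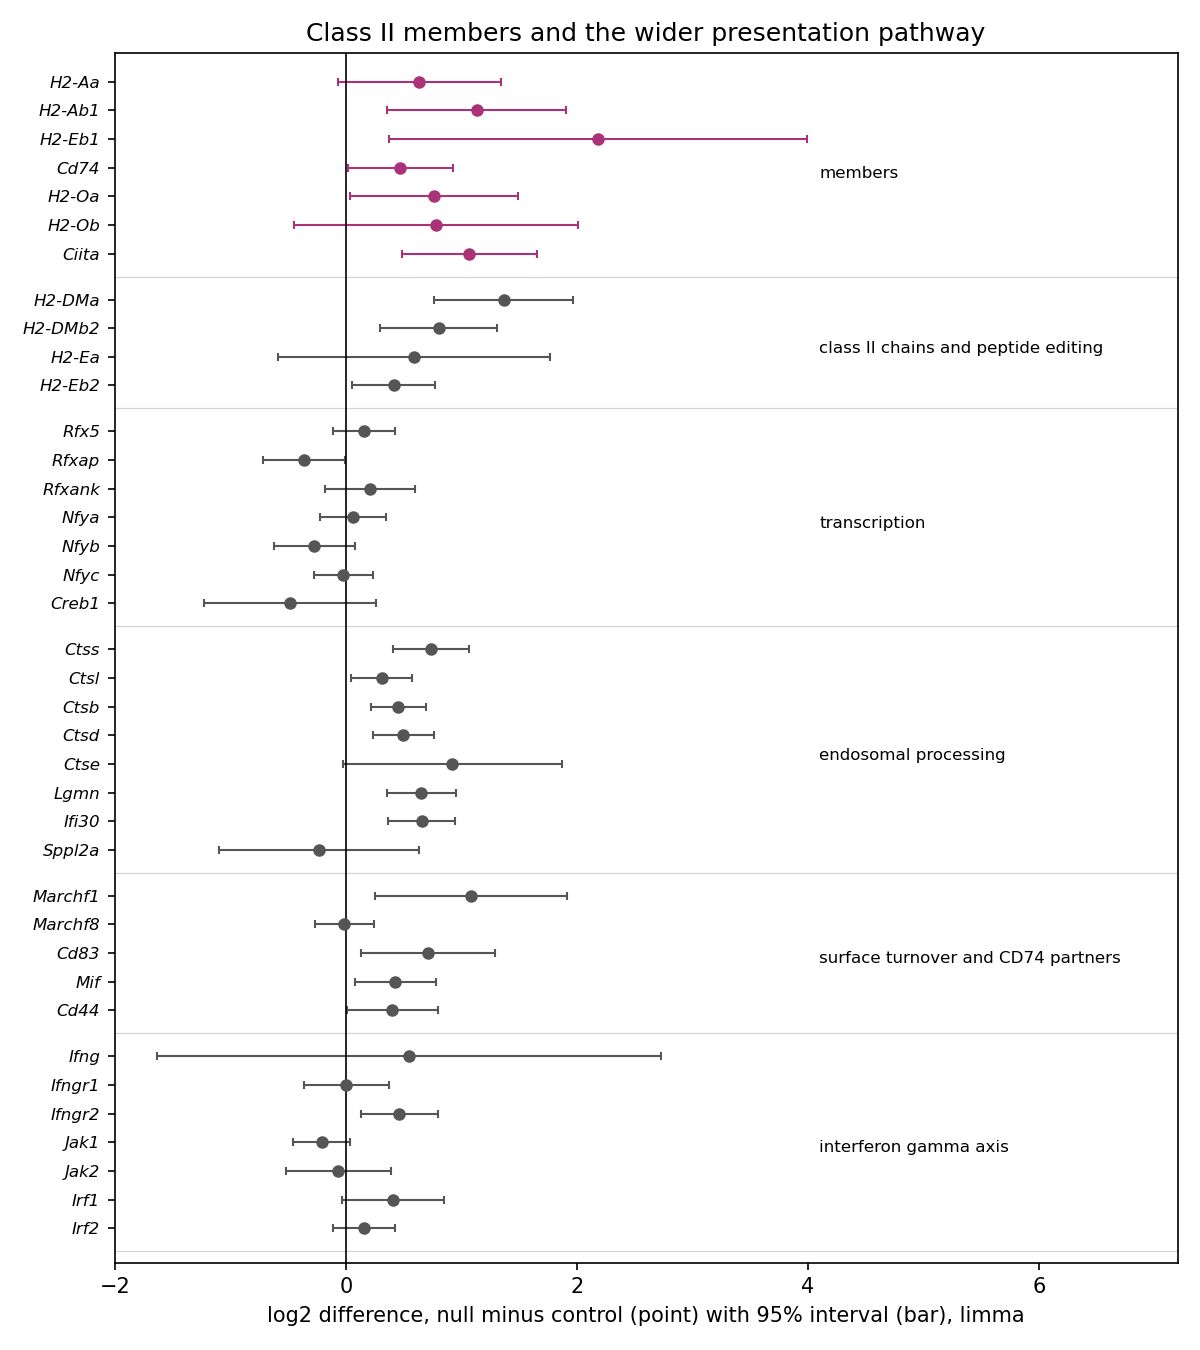
Log2 difference between null and control lungs (horizontal axis; points are limma estimates and bars 95% intervals, n = 3 each) for the 7 members and 31 pathway genes, grouped by role. The members, H2-DM chains and most proteases lie to the right of 0, while the factors that hold CIITA on DNA lie around 0.

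Markers of the cells that make class II differed between the groups to different degrees, and their part in the result was not tested. No marker reads 0 on these arrays, and levels are given as the log2 of the summed signal of a list. Of 7 B cell markers, 0 lay above every control, beside 10.8% of all genes, and 0 passed. The list lay between 11.74 and 12.52 in control lungs and between 12.03 and 12.88 in null ones. Cd22, an inhibitory co-receptor of B cells, and Fcrla, an Fc receptor-like protein, differed by 0.67 (limma adjusted p = 0.412) and 0.60 (limma adjusted p = 0.463). Control replicate 3 was the lowest lung in 6 of the 7. Pax5 was dim throughout, at values between 5.39 and 5.71 in control lungs and between 5.64 and 5.78 in null ones.

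Of 7 conventional dendritic cell markers, 2 lay above every control, beside 10.8% of all genes, and 0 passed. Their median log2 difference was 0.82, with 6 of 7 positive. The list lay between 12.27 and 12.88 in control lungs and between 12.72 and 12.94 in null ones. The lectins Clec10a and Cd209a differed by 1.39 (limma adjusted p = 0.0795) and 1.20 (limma adjusted p = 0.379). Zbtb46, the transcription factor of the lineage, differed by -0.03. It was the brightest of the 7, between 11.95 and 12.31 in control lungs, so it weighs most in the summed level. Xcr1 was dim, with 4.75 as its lowest and 5.96 as its highest value over the 6 lungs. Control replicate 3 was again the lowest lung in 6 of the 7 markers, and its median difference from the mean of the other controls was -1.05.

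Macrophage markers lay above the controls in more cases. Control replicate 3 was the highest control for the summed alveolar list. Chil3 was the brightest gene of that list in controls (13.06, 13.15 and 13.68). For 2 of the 8 alveolar markers, Siglecf (8.70) and Itgax (9.35), control replicate 3 was the lowest of all lungs. For the interstitial list it was also the lowest lung, 0.08 below the mean of the other controls. Of 8 alveolar macrophage markers 6 lay above every control, beside 10.8% of all genes. The list lay between 14.07 and 14.39 in control lungs and between 14.82 and 15.63 in null ones. Itgax, which encodes CD11c, passed the test with a log2 difference of 1.94 (limma adjusted p = 0.036). The smallest difference of the alveolar list was 0.18, for Marco, with overlapping groups (limma adjusted p = 0.788). Of 7 markers of monocytes and interstitial macrophages 6 lay above every control and 0 passed, and the list lay between 13.82 and 13.92 in control lungs and between 14.27 and 14.87 in null ones. C1qa, a complement subunit, differed by 1.03 (limma adjusted p = 0.0795), and Adgre1, the F4/80 antigen, by 1.40 (limma adjusted p = 0.128).

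Alveolar type II cell markers, which also check the labelled tissue, were bright and alike in all lungs. Their sum lay between 15.91 and 16.02 in control lungs and between 15.95 and 16.06 in null ones, with 1 of 6 above every control (Napsa, a protease of surfactant processing, 0.34, limma adjusted p = 0.405). Of 6 T cell markers 2 lay above every control, beside 10.8% of all genes, and 0 passed. The list lay between 11.06 and 12.91 in control lungs and between 12.68 and 13.79 in null ones. Cd8a differed by 2.27 (limma adjusted p = 0.297) and Cd4 by 1.06 (limma adjusted p = 0.349). Of 4 genes of all leukocytes 3 lay above every control, beside 10.8% of all genes, and 0 passed. Their sum lay between 14.29 and 14.72 in control lungs and between 14.87 and 15.32 in null ones. The exception, Ptprc, read 11.16, 11.63 and 10.76 in controls and 10.44, 12.31 and 11.88 in null lungs. Its log2 difference was 0.36 (limma adjusted p = 0.798), and null replicate 1 was the lowest lung. Coro1a and Laptm5 differed by 0.68 (limma adjusted p = 0.138) and 0.58 (limma adjusted p = 0.192).

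Thymus tissue also carries class II, and 5 of 8 genes of the thymus list lay above every control, beside 10.8% of all genes. Their sum lay between 8.36 and 9.69 in control lungs and between 11.45 and 12.81 in null ones. Dntt, which adds untemplated bases during receptor gene rearrangement, passed the test (log2 difference 4.08, limma adjusted p = 0.0454). Rag1 had the largest difference of the list, 4.24 (limma adjusted p = 0.0534), and Ptcra differed by 1.73 (limma adjusted p = 0.228). Foxn1, the transcription factor of thymic epithelium, read between 5.79 and 5.90 in control lungs and between 5.63 and 5.94 in null ones, and Psmb11, a proteasome subunit of that epithelium, 4.86 to 5.06 and 5.27 to 5.89; both are dim. The Gapdh 3-prime minus 5-prime difference of the Affymetrix control probes, which tracks RNA degradation, lay between 1.06 and 1.23 in control lungs and between 0.91 and 0.97 in null ones, without overlap. The same difference for Actb was 0.57, 0.65 and 0.46 in controls and 0.44, 0.43 and 0.47 in null lungs, which overlapped. The part of RNA quality in these results was not tested.

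**Figure D4:**
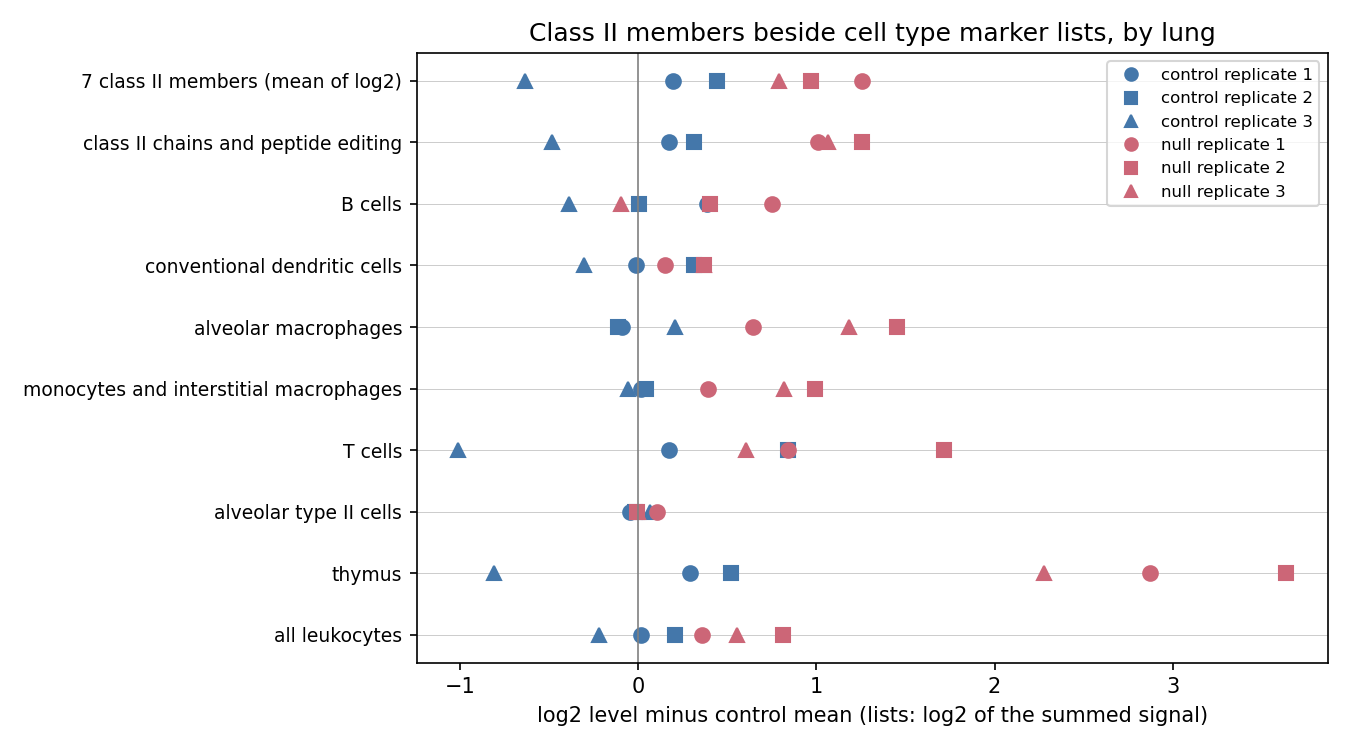
Level in each of the 6 lungs minus the control mean (horizontal axis, log2) of the 7 class II genes (mean of their log2 values) and of the marker lists (log2 of summed signal). Control replicate 3 is the lowest lung in every row but those of alveolar macrophages and alveolar type II cells, and thymus genes are furthest apart between groups. A summed level mostly follows the brightest genes of its list.

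The genes whose levels ran most like the members over the 6 lungs were found by the root mean square distance, in log2 units after each gene's own mean was subtracted, from the mean profile of H2-Aa, H2-Ab1, H2-Eb1 and Cd74. That profile was -0.43, -0.16 and -1.07 in controls and 0.94, 0.40 and 0.32 in null lungs. Its peak in null replicate 1 came from H2-Eb1: the mean of H2-Aa, H2-Ab1 and Cd74 alone was -0.16, 0.03 and -0.99 in controls and 0.27, 0.42 and 0.44 in null lungs. Among 8904 named genes brighter than the median, the nearest 8 were Hvcn1, a voltage-gated proton channel of leukocytes (0.198), Mthfd2, a mitochondrial folate enzyme (0.208), Plcg2, a phospholipase of immune receptor signalling (0.21), Slc16a10, an aromatic amino acid transporter (0.215), H2-DMa (0.215), Sbno2 (0.238), Syk, a kinase of immune receptors (0.239), and Cd300c2 (0.24). Of the members outside the profile, H2-Oa lay at 0.241, Ciita at 0.269 and H2-Ob at 0.44. Those that made the profile were not all near it, with H2-Ab1 at 0.288, Cd74 at 0.38, H2-Aa at 0.381 and H2-Eb1, the farthest of the 7, at 0.933. H2-Aa and Cd74 would each rank 102 among the genes compared.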

How the data were processed

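Each of 6 whole-lung RNA samples was measured on 1 array. The authors made the log2 values they deposited with RMA, per the submitters' processing notes, and no source used here gives its version. RMA equalises arrays (medians 7.85 to 7.91), so a shift of most genes would not be seen. Groups come from the genotype label; replicate numbers follow accession order and pair nothing. Whether every array came from its own animal is not labelled; p-values reflect only how much these samples vary, which may be technical.

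Of 45101 probe sets, 64 Affymetrix controls were left out and 45037 tested; 34945 had 1 symbol in the platform annotation, 932 several and 9160 are unnamed here. Each of 18193 genes stands by its brightest single-gene probe set. The comparison of null with control used limma 3.58.1 under R 4.3.3 (lmFit, eBayes, null minus control, two-sided, Benjamini-Hochberg over all genes or all probe sets, threshold 0.05), tested on simulated data. The number of arrays, 3 per group, limits precision. The members, lists and tests were chosen with earlier results of these data known. Genes named are all members; Foxa2; H2-DM, H2-Ea and the 8 genes nearest in profile; from each other list those that passed, or otherwise up to 2 with the smallest p. H2-Eb2, Sppl2a, Ifng, Pax5, Zbtb46, Xcr1, Siglecf, Chil3, Marco, Ptprc, Rag1, Ptcra, Foxn1, Psmb11 and Prss16 were named after their values were seen. So were the neighbours of the class II genes in the closing section. Alternatives were other scalings, a filter on dim signal, array weights, trended and robust variances, a block for the title number (statmod 1.5.0), the mean of probe sets and leaving out lungs.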

Additional observations from a re-analysis of the deposited data

How the results depend on the processing

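The log2 differences of 6 members were positive in all 15 alternatives; that of H2-Ob was positive in 14 and was -0.13 with the title number as a fixed block. No member gene passed under any of the 15. The ranges over all fits were 0.29 to 0.86 for H2-Aa, 0.67 to 1.40 for H2-Ab1, 0.88 to 2.74 for H2-Eb1, 0.23 to 0.59 for Cd74, 0.31 to 0.94 for H2-Oa, -0.13 to 1.22 for H2-Ob and 0.79 to 1.24 for Ciita. The log2 ratio of H2-Ob to Cd74 differed by -0.07 to 0.62 when single lungs were left out, the negative value being that without control replicate 3. Of 14 member probe sets, 1 passed with array weights and 1 when the title number was a random block, in both cases Ciita's dimmest (0.76 each; limma adjusted p = 0.0351 and 0.0475), where calls over all probe sets went from 45 to 564 and 279. At an unadjusted p under 0.05 there were 2 to 7 member genes when single lungs were left out, against 5 with all lungs, and 3 with either block. Of 31 pathway genes, 3 passed with trend and robust settings (Ctsb, Ctss and Ifi30), 6 with array weights (those 3 with H2-DMa, Lgmn and Marchf1) and 5 with the random block (those 3 with H2-DMa and Lgmn). Leaving out single lungs gave 0 to 1 pathway genes, the 1 being Marchf1 without null replicate 1; it also was the 1 gene that passed without null replicate 1 and control replicate 3, an alternative added after the data were seen. The cause of these changes was not tested. No paired analysis was possible because the labels give no replicate numbers that pair the groups; the fixed block rests on 1 control and 2 null lungs. Of all genes on the array, 0 passed limma's test when control replicate 1, control replicate 2 or null replicate 3 was left out (1654, 1801 and 2111 at an unadjusted p under 0.05) or with the fixed block (2121). The count was 104 with all lungs, 607 with array weights, 399 with the random block, 249 without null replicate 1, 48 with cyclic loess, 19 without control replicate 3 and 7 without null replicate 2.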

Other observations

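On mouse chromosome 17 the H2 class II genes are neighbours, and the stretch from H2-Oa to H2-Ea in RefSeq's gene order held 29 single-gene probe sets of 14 genes. Between them lie class I presentation genes, which encode the immunoproteasome and the peptide transporter. Psmb9 read 10.67, 10.92 and 10.45 in controls and 11.20, 11.80 and 12.13 in null lungs, and Tap1 read 9.21, 9.78 and 9.65 in controls and 10.18, 10.61 and 11.26 in null lungs. In both, null replicate 1 was the lowest null lung and null replicate 3 the highest (limma adjusted p over all probe sets 0.230 and 0.246). Psmb9 ranked the 6 lungs as the brightest probe sets of H2-Ab1 and Ciita did. On both other probe sets of H2-Ab1, null replicate 2 was the highest lung (12.77 and 12.49). On Ciita's dimmest probe set, but not on its second brightest, null replicate 1 was the highest (6.87). Null replicate 1 was the highest lung for 2 of the 7 members, H2-Eb1 and H2-Oa, and for 34.3% of all genes.

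In that stretch null replicate 1 was more than 1 log2 unit above all other lungs in 5 of the 29 probe sets, beside 75 of 45037 on the whole array. They were H2-Eb1, 2 of the 4 probe sets of H2-Aa and 2 of the 3 of H2-DMb2. The pair of H2-DMb2 read 10.36 and 10.88 in null replicate 1 and at most 7.85 and 8.61 elsewhere, whereas its brightest probe set over the 6 lungs read 9.36 in null replicate 1 and 9.50 in null replicate 2. H2-Ea was lowest in null replicate 1 on both of its bright probe sets (7.81 and 8.50, against 9.39 and 10.18 in null replicate 2). These values were singled out after they were seen, and what sets this lung apart was not tested. On these probe sets a difference in H2 sequence under the probes and one in RNA level cannot be told apart.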
